A study of Leucoraja erinaceus with 6 samples.

Results

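The genes described here are the cytosolic ribosomal proteins of the little skate (Leucoraja erinaceus). They were taken as every row of the deposited table whose description names a ribosomal protein of the L or S series or a large subunit P protein, leaving out mitochondrial proteins and kinases. The rule found 69 of 7080 rows, of which 41 were large subunit and 28 small subunit rows. The samples were pectoral fin motor neurons (3 libraries, replicates 1, 2 and 3) and cells of the tail spinal cord (3 libraries, replicates 1, 2 and 4), all from wild type embryos at stages 30 to 31. Cells were sorted by hand, and no transgene, drug or reporter is named in the labels. The groups differ by label in both cell class and axial level, so these cannot be told apart. Nothing in the labels says if the 3 libraries of a group are from different embryos or pools, so a p-value here covers the spread between these libraries alone, and that spread may be technical.

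A cytosolic ribosome is made of a large subunit, which forms peptide bonds, and a small subunit, which reads the mRNA. Each protein is present once per ribosome, apart from the acidic P1 and P2 proteins of the stalk, which are present in pairs. Vertebrate ribosomal protein mRNAs start with a pyrimidine tract, the 5′ TOP motif, through which growth signalling controls their translation. Neurons need ribosomes for the growth of the cell body and for local translation in axons.

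Of 79 standard vertebrate ribosomal proteins, the rule found a row for 67, 39 of 47 in the large and 28 of 32 in the small subunit. A description was given for 1577 of the 7080 rows. A protein whose row has no description, or that is described under another name, would be missed. The other 2 of the rows were described as L7-like 1 (RPL7L1) and L22-like 1 (RPL22L1), paralogs of standard proteins. No row chosen by the rule named RPL22, RPL23A, RPL24, RPL27A, RPL28, RPL37A, RPL41, RPS20, RPS26, RPS28 or FAU, the source of S30. Each symbol had 1 row, and symbols come from the descriptions, so orthology to the named protein was not checked.

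The libraries were unequal. Values are TPM, a transcript abundance scaled for transcript length and for the library total, and read depth is unknown. The deposited rows summed to 48449 to 74224 TPM per library. Pectoral replicate 1 summed to 50000 TPM after rounding to whole TPM. Whether its values were rescaled before deposit is unknown, which bears on its level in each comparison of TPM as deposited. Values of 0 were listed for 5 rows in pectoral replicate 1, against 3552 of 7080 rows in tail replicate 4. Several results that rest on these libraries are also given without 1 or both of them. Of 5 motor neuron markers, ISL1, ISL2 and NGFR were higher in each pectoral library than in any tail library, while CHAT and SLC18A3 overlapped. Of all tested rows 4.18% were higher in every pectoral library. In the tail libraries ISL1, ISL2 and NGFR had at most 0.249 TPM. ISL2 was as low as 0.327 TPM in pectoral replicate 3 and did not pass the filter for testing given below. Per library the 5 markers together had 15.6 to 17.7 TPM in the pectoral group and 2.91 to 5.96 TPM in the tail group. No described row named a marker of the glia, blood, muscle and mesenchyme lists. Rows without a description could not be searched for them.

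Ribosomal proteins were among the higher rows of the table. All 69 passed the filter for testing (at least 1 TPM in at least 3 libraries), and 58 stood at 1 TPM or more in all 6 libraries. Ranked by mean TPM, 59 of 69 were in the top 708 of 7080 rows. The median of their mean TPM was 13.5, against 1.65 over all rows, most of which carry no description. A 0 in any library was listed for 4 of them, or 5.797%, against 67.2% of all rows.

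Although the proteins are used in equal numbers, the mean TPM of their rows over the 6 libraries varied widely. It was lowest in RPL36 at 1.89 TPM, 23 rows reached 20 TPM, and the quartiles were 9.86 and 25.6 TPM. RPL31, near the exit of the peptide tunnel, had 36.3, 35.6 and 109 TPM in the pectoral libraries, against 59.2, 41.8 and 56.7 TPM in the tail libraries. RPL37, a small zinc-binding protein of the large subunit, had 21.8, 52.2 and 35.9 TPM in the pectoral libraries, against 53.1, 44.4 and 52.9 TPM in the tail libraries. Both had overlapping groups, and RPL37 had the smallest fold difference between its highest and lowest library, 2.43-fold. By the SD of log2(TPM + 1) over the 6 libraries, RPL9 was the most even at 0.43 and RPL37 the next at 0.49.

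RPL31 and RPL5b ranked in the top 10 of ribosomal proteins in every library. A row's highest library exceeded its lowest by a median of 8.22-fold over the 65 rows above 0 everywhere. This was 6.598-fold for large and 11.4-fold for small subunit rows. It was at most 3-fold in 5 rows (RPL37, RPS15A, RPS15, RPL9 and RPL5b) and over 10-fold in 26. The SD of log2(TPM + 1) over the 6 libraries had a median of 0.99 in ribosomal protein rows and 1.13 in all tested rows.

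**Figure D1:**
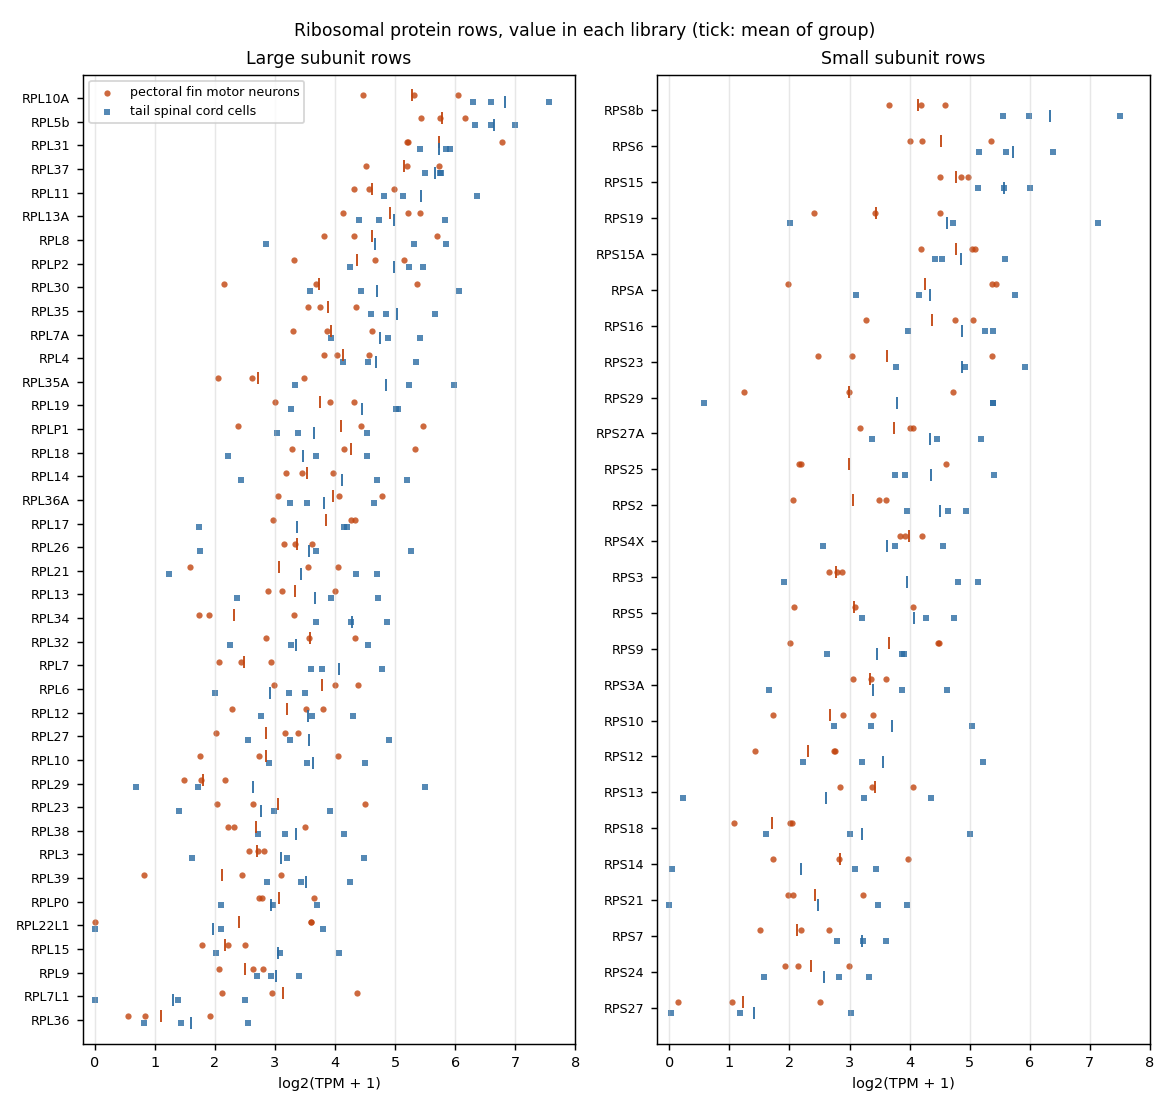
Each row shown is 1 ribosomal protein, ordered by mean TPM, with large subunit rows on the left and small subunit rows on the right, and the horizontal axis is log2(TPM + 1). Circles are the 3 pectoral libraries, squares the 3 tail libraries and ticks the group means. The circles of RPS8b lie left of all its squares, at 17.3, 11.6 and 23.1 TPM in the pectoral libraries, against 180.2, 62.3 and 45.97 TPM in the tail libraries.

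Within a library, the spread between the ribosomal protein rows was widest in tail replicate 4. The SD of log2(TPM + 1) between rows was 1.05, 1.35 and 1.36 in pectoral replicates 1, 2 and 3, against 1.18, 1.35 and 1.93 in tail replicates 1, 2 and 4. Rows under 1 TPM numbered 8 in tail replicate 4, of which 4 were listed at 0, RPS21, RPL7L1 and RPL22L1 among them. In the other 5 libraries 0 to 3 rows were under 1 TPM. Tail replicate 4 held the lowest value of the 6 libraries for 18 rows, or 26.1%, against 34.2% of all tested rows. Ties were credited to the earlier library, with tail replicate 4 last, so both shares are lower bounds. RPL22L1, at 0 also in pectoral replicate 3, was credited there. It held the highest for 16 rows, or 23.2%, against 14.6% of all tested rows. RPS14, which lines the small subunit platform, had 2.29, 6.11 and 14.8 TPM in the pectoral libraries, against 9.91, 7.52 and 0.0364 TPM in the tail libraries. RPS13, another small subunit protein, had 6.21, 9.32 and 15.6 TPM in the pectoral libraries, against 19.4, 8.503 and 0.175 TPM in the tail libraries. RPS19, which is needed to mature the small subunit rRNA, had 4.29, 9.74 and 21.6 TPM in the pectoral libraries, against 25.5, 3.03 and 140.2 TPM in the tail libraries. RPS13 and RPS14 were lowest, and RPS19 highest, in tail replicate 4.

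Tail replicate 1 held the highest value for 36 of 69 rows, or 52.2%, against 35.2% of all tested rows, and the lowest for 0. Pectoral replicate 1 held the highest value for 0 ribosomal protein rows and the lowest for 23, or 33.3%, against 6.796% of all tested rows. The lowest and the highest library for ribosomal proteins were thus 1 pectoral and 1 tail library. The 33.3% and the 6.796% are not like for like. Over all rows, 5 were listed at 0 in pectoral replicate 1, against 1051 to 3552 in each other library. A row at 0 elsewhere can hardly be lowest in pectoral replicate 1, and few ribosomal protein rows had a 0.

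The summed TPM of the ribosomal protein rows was 702, 1218 and 1255 TPM in pectoral replicates 1, 2 and 3, against 2222, 1306 and 1694 TPM in tail replicates 1, 2 and 4. Every pectoral library was below every tail library, although pectoral replicate 3 was only slightly below tail replicate 2. The mean sum was 1059 ± 309 TPM for the pectoral group and 1741 ± 459.6 TPM for the tail group (SD, n = 3 each), a ratio of 0.608. With 1 library left out this ratio ran from 0.541 (without tail replicate 2) to 0.711 (without pectoral replicate 1). It was 0.600 without tail replicate 4. Leaving out pectoral replicate 1 and tail replicate 4 cannot undo the order of the groups, so it is no test of that order. As a share of all deposited TPM the sum was 1.404%, 2.21% and 1.99% in pectoral replicates 1, 2 and 3, against 2.99%, 2.26% and 3.496% in tail replicates 1, 2 and 4. The shares separated as well, by 2.21% in pectoral replicate 2 against 2.26% in tail replicate 2. After the single largest row of the table was left out, the shares were 2.08%, 3.59% and 3.77% in pectoral replicates 1, 2 and 3, against 4.14%, 3.19% and 4.71% in tail replicates 1, 2 and 4, and the groups overlapped. In sorted bulk cells, fewer cells with many ribosomes and less ribosomal protein mRNA per cell cannot be told apart.

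Large subunit rows, the more numerous, summed to more than small subunit rows in all 6 libraries, and by a larger factor in each pectoral library than in any tail library. The ratio of the large to the small subunit sum was 1.98, 2.26 and 2.05 in pectoral replicates 1, 2 and 3, against 1.27, 1.87 and 1.65 in tail replicates 1, 2 and 4. Every pectoral library lay above every tail library, with a mean of 2.095 ± 0.145 in pectoral and 1.595 ± 0.302 in tail libraries (SD, n = 3 each). The ratio was also taken without the row of highest mean TPM in each subunit. It was 1.97, 1.98 and 1.84 in pectoral replicates 1, 2 and 3, against 1.49, 1.83 and 1.62 in tail replicates 1, 2 and 4. The groups then barely separated, and the ratio of group means (pectoral over tail) fell from 1.31 to 1.17. The mean large subunit sum was 718 ± 218 TPM for the pectoral group and 1049 ± 196 TPM for the tail group. The mean small subunit sum was 341 ± 92.9 TPM for the pectoral group and 691 ± 265 TPM for the tail group.

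The typical row separated the groups less clearly than the sums did. The median large subunit row had 7.83, 11.1 and 14.2 TPM in pectoral replicates 1, 2 and 3, against 22.1, 11.1 and 12.8 TPM in tail replicates 1, 2 and 4. The median small subunit row had 5.01, 10.7 and 10.2 TPM in pectoral replicates 1, 2 and 3, against 25.4, 11.3 and 10.9 TPM in tail replicates 1, 2 and 4. The ratio of these medians was 1.56, 1.04 and 1.39 in pectoral replicates 1, 2 and 3, against 0.868, 0.982 and 1.17 in tail replicates 1, 2 and 4, and on this measure the groups overlapped.

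**Figure D2:**
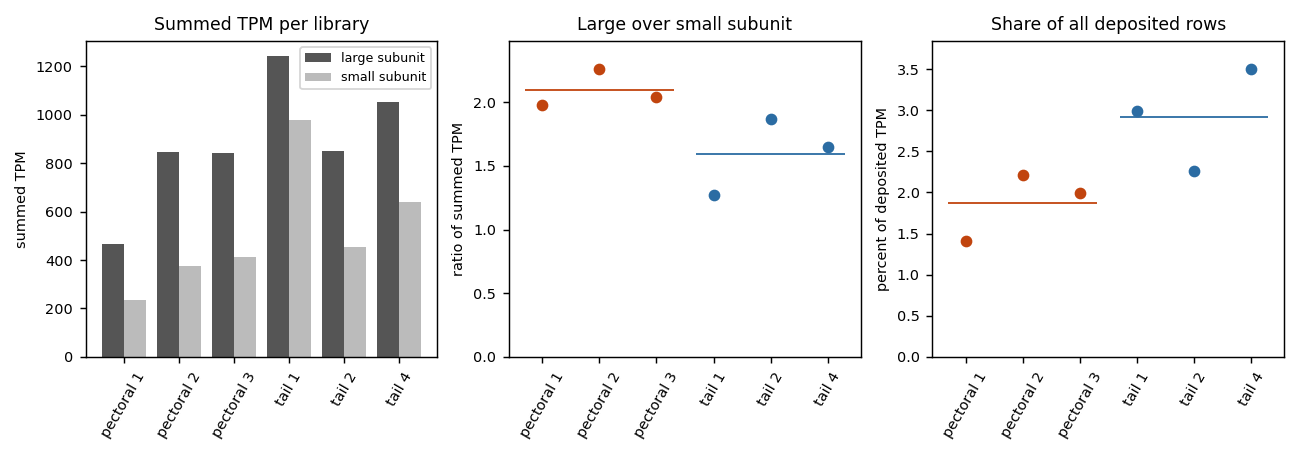
The left panel gives the summed TPM of large and small subunit rows in each library, the middle panel the ratio of these sums and the right panel all ribosomal protein rows as a percent of deposited TPM, with lines for the group means. The middle panel shows ratios of 1.98 to 2.26 in the pectoral and 1.27 to 1.87 in the tail libraries.

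Row by row, the comparison of pectoral fin motor neurons with tail spinal cord cells was fitted with limma on log2(TPM + 1) over 3752 rows, with p-values adjusted over all of them. At an adjusted p under 0.05, 0 of 69 ribosomal protein rows passed, where 0.08% of all tested rows did (0.0533% higher and 0.0267% lower in pectoral libraries). At an unadjusted p under 0.05 in limma, 5 passed, RPS8b, RPL35A, RPL10A and RPL34 among them, all 5 lower in pectoral libraries. This is 7.25% of the ribosomal protein rows, close to the 7.04% of all tested rows that passed in either direction, where 3.94% passed as lower and 3.09% as higher in pectoral libraries. The smallest limma adjusted p of a ribosomal protein row was 0.542.

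Log2 fold changes (pectoral minus tail) were negative in 53 of 69 rows, or 76.8%, against 56.5% of all tested rows. Their median was -0.54, against -0.18 for all tested rows. Among the 2778 other tested rows within their range of mean TPM, 59.8% were negative and the median was -0.30. The median of the mean TPM of these other rows was 4.16, still below the 13.5 of the ribosomal protein rows. Negative values were seen in 30 of 41 large subunit rows (median -0.51) and 23 of 28 small subunit rows (median -0.80). The median shift depended on scaling. Median-ratio scaling moved the median of all tested rows by 0.26 to 0.083, and that of ribosomal protein rows to -0.23. Set against the median of all tested rows, the ribosomal protein median stood at -0.36 on the deposited scale, -0.32 after median-ratio and -0.05 after quantile scaling. Without pectoral replicate 1 and tail replicate 4 it stood at -0.18. For large subunit rows alone the same difference was -0.33 as deposited, -0.29 after median-ratio and -0.033 after quantile scaling. It was -0.039 when only tail replicate 4 was dropped, and 0.063 when both libraries were dropped. For small subunit rows it was between -0.87 and -0.27 over the settings run. The large subunit shift was thus nearly absent or reversed in some settings. The small subunit median stayed below that of all tested rows in every setting.

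By the origin of the protein, 30 rows name proteins with a bacterial counterpart and 37 name proteins without one. Log2 fold changes were negative in 23 and 30 of these, with medians of -0.51 and -0.61. The 14 small subunit proteins without a bacterial counterpart had the lowest median of the 4 classes, -1.06, with 13 negative.

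In 10 rows all 3 pectoral libraries lay below all 3 tail libraries, where 7.6% of all tested rows did so. In 0 rows they lay above, where 4.18% of all tested rows did. The share among ribosomal protein rows lower in pectoral libraries was 14.5%. It was 8.78% among the other tested rows within their range of mean TPM, of which 3.92% lay above. Among these rows were RPL5b, RPL7, RPL10A, RPL34 and RPL35 of the large and RPS2, RPS7, RPS8b and RPS15 of the small subunit. RPL35 and RPS7 are named here after their values were seen.

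A p-value under 0.05 stood in the authors' deposited table for 4 ribosomal protein rows, or 5.80%, where 3.09% of all rows had one. Among the other tested rows within their range of mean TPM the share was 5.51%, close to that of the ribosomal protein rows. RPL5b, RPL34 and RPS2 were among them, at 0.04703, 0.0467 and 0.04598 in the authors' deposited table.

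RPS8b, a small subunit protein that binds the 18S rRNA, had 17.3, 11.6 and 23.1 TPM in the pectoral libraries, against 180.2, 62.3 and 45.97 TPM in the tail libraries. The log2 fold change was the most negative of the ribosomal proteins, -2.20 (limma adjusted p = 0.542, SE 0.77). The tail libraries differed widely among themselves, and tail replicate 1 was the highest. RPS2, at the mRNA entry side of the small subunit, had 3.18, 10.3 and 11.2 TPM in the pectoral libraries, against 24.1, 14.5 and 29.6 TPM in the tail libraries. RPS15, of the small subunit head, had 21.7, 30.5 and 27.9 TPM in the pectoral libraries, against 63.5, 34.1 and 46.4 TPM in the tail libraries. Both were lower in every pectoral library, with log2 fold changes of -1.46 (limma adjusted p = 0.837, SE 0.88) and -0.79 (limma adjusted p = 0.894, SE 0.75).

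Among the large subunit rows, RPL10A, of the L1 stalk where spent tRNA leaves, had 39.01, 65.3 and 21.02 TPM in the pectoral libraries, against 77.8, 96.3 and 189 TPM in the tail libraries. Its log2 fold change was -1.55 (limma adjusted p = 0.641, SE 0.70). RPL34 had 8.99, 2.32 and 2.75 TPM in the pectoral libraries, against 18.3, 11.9 and 28.2 TPM in the tail libraries, with a log2 fold change of -1.96 (limma adjusted p = 0.669, SE 0.92). RPL7, a large subunit protein with a bacterial counterpart, had 4.43, 3.17 and 6.61 TPM in the pectoral libraries, against 26.7, 11.1 and 12.8 TPM in the tail libraries, with a log2 fold change of -1.58 (limma adjusted p = 0.818, SE 0.91). In all 3 rows every pectoral library was below every tail library, and the tail values differed among themselves. RPL34 and RPL35 share the DN and c numbers of their Trinity contig names, as do RPL19 and RPLP0, so reads could be split or shared between them. RPS24 shares only the DN number with RPL34 and RPL35.

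The following rows lie outside the naming rule and were chosen after their values were seen. RPL35A, a large subunit protein altered in some cases of Diamond-Blackfan anaemia in humans, had 10.2, 5.11 and 3.13 TPM in the pectoral libraries, against 36.7, 9.03 and 62.05 TPM in the tail libraries. Its log2 fold change was -2.14 (limma adjusted p = 0.612, SE 0.91), the most negative of the large subunit, and 1 pectoral library lay within the tail values. RPL6, of the large subunit, had 14.97, 6.89 and 19.8 TPM in the pectoral libraries, against 10.4, 8.44 and 2.996 TPM in the tail libraries, and RPL18 had 8.79, 39.2 and 16.8 TPM in the pectoral libraries, against 22.1, 3.63 and 11.8 TPM in the tail libraries. These 2 had the most positive log2 fold changes of the standard large subunit proteins, 0.87 (limma adjusted p = 0.895, SE 0.92) and 0.78 (limma adjusted p = 0.9001, SE 0.91), with overlapping groups. RPS4X, of the small subunit body, had 13.3, 17.5 and 14.1 TPM in the pectoral libraries, against 22.5, 12.5 and 4.88 TPM in the tail libraries. Its groups overlapped as deposited, and its log2 fold change was 0.37 (limma adjusted p = 0.9597, SE 0.88). RPL9, near the base of the large subunit stalk, had 5.19, 5.999 and 3.205 TPM in the pectoral libraries, against 6.67, 5.47 and 9.56 TPM in the tail libraries. RPL36, the lowest row, had 2.78, 0.794 and 0.459 TPM in the pectoral libraries, against 1.69, 4.86 and 0.773 TPM in the tail libraries. RPS27, the other row with a mean under 5 TPM, had 4.72, 1.05 and 0.0991 TPM in the pectoral libraries, against 7.12, 1.26 and 0.0193 TPM in the tail libraries. In these last 3 rows the groups overlapped.

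After each value was divided by the library's summed ribosomal protein TPM, the count of rows lower in pectoral libraries was 4, RPL7, RPS2 and RPS8b among them, where 2.72% of all tested rows were. In 3 rows (RPL18, RPS4X and RPL7L1) they lay higher, where 10% of all tested rows did. RPS8b held 2.46%, 0.956% and 1.84% of ribosomal protein TPM in the pectoral and 8.11%, 4.77% and 2.71% in the tail libraries. It was thus lower in every pectoral library also as a part of the ribosomal protein total. With median-ratio scaling 4 rows, RPL7, RPL34 and RPS8b among them, were lower in every pectoral library, where 5.12% of all tested rows were, and RPS4X was higher, where 7.52% were. RPL7 and RPS8b were lower on the deposited scale and on both of these scales. Without pectoral replicate 1 and tail replicate 4, 25 rows were lower in both remaining pectoral libraries, where 30.4% of all tested rows were, and 6 were higher, where 9.38% were.

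**Figure D3:**
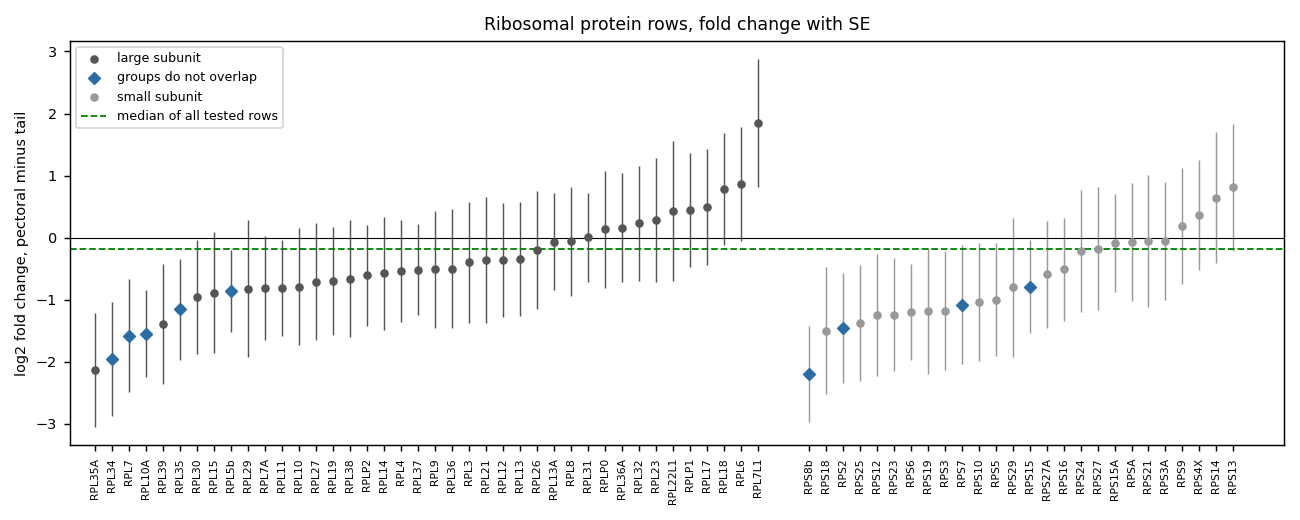
Log2 fold change (pectoral minus tail, on log2(TPM + 1)) with SE for single ribosomal protein rows, large subunit on the left and small subunit on the right, each ordered by value. Diamonds mark rows whose groups did not overlap, and the dashed line is the median of all tested rows, -0.18. The values run between -2.20 for RPS8b and 1.85 for RPL7L1.

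Both paralog rows had positive log2 fold changes. RPL7L1, related to a yeast factor of large subunit assembly, had 3.33, 6.71 and 19.5 TPM in the pectoral libraries, against 1.61, 4.67 and 0 TPM in the tail libraries. It had the most positive log2 fold change of the rows, 1.85 (limma adjusted p = 0.805, SE 1.03), and its groups overlapped by 1 pair of libraries, pectoral replicate 1 and tail replicate 2. RPL22L1, a paralog of L22, had 11.1, 11.1 and 0 TPM in the pectoral libraries, against 3.29, 12.97 and 0 TPM in the tail libraries. It was listed at 0 in 1 library of each group, and its log2 fold change was 0.43 (limma adjusted p = 0.966, SE 1.13).

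The stalk of the large subunit recruits elongation factors. P0, its base, had 5.68, 5.89 and 11.6 TPM in the pectoral libraries, against 12.03, 6.86 and 3.28 TPM in the tail libraries. P1 had 4.25, 42.97 and 20.6 TPM in the pectoral libraries, against 22.2, 9.42 and 7.17 TPM in the tail libraries. P2 had 8.96, 34.3 and 24.3 TPM in the pectoral libraries, against 17.9, 43.3 and 36.6 TPM in the tail libraries. All 3 overlapped between groups, and log2 fold changes were 0.13, 0.44 and -0.61. P2 was above P0 in all 6 libraries, and P1 in all but pectoral replicate 1.

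RPL5b and RPL11 bind the 5S rRNA and, when free, the p53 regulator MDM2. RPL5b had 42.3, 70.9 and 52.5 TPM in the pectoral libraries, against 126, 79.5 and 96.3 TPM in the tail libraries, and its groups did not overlap. RPL11 had 22.6, 18.96 and 30.8 TPM in the pectoral libraries, against 81.4, 27.02 and 33.9 TPM in the tail libraries, and its groups overlapped by pectoral replicate 3 and tail replicate 2. Log2 fold changes were -0.86 (limma adjusted p = 0.867, SE 0.66) for RPL5b and -0.81 (limma adjusted p = 0.894, SE 0.78) for RPL11. RPS6, the target of the S6 kinases, had 15.02, 17.4 and 39.8 TPM in the pectoral libraries, against 82.7, 47.8 and 34.9 TPM in the tail libraries, with a log2 fold change of -1.20 (limma adjusted p = 0.842, SE 0.77). Its groups overlapped by pectoral replicate 3 and tail replicate 4. RPS15A, of the small subunit body, had 17.2, 31.9 and 32.9 TPM in the pectoral libraries, against 22.3, 20.4 and 47.3 TPM in the tail libraries, and its groups overlapped.

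RPS27A is made as a fusion to ubiquitin, which is cut off after translation. It had 15.05, 15.7 and 8.03 TPM in the pectoral libraries, against 35.3, 9.37 and 20.9 TPM in the tail libraries, with overlapping groups.

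RPS21, of the small subunit, was listed at 0 in tail replicate 4. It had 3.18, 2.95 and 8.37 TPM in the pectoral libraries, against 14.5, 10.1 and 0 TPM in the tail libraries. Apart from that library, both tail values were above all pectoral values. Without tail replicate 4 its log2 fold change was -1.29, against -0.053 with it.

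The ribosomal protein rows covaried only loosely over the 6 libraries. Among 2346 pairs of rows, Pearson's r of log2(TPM + 1) had a median of 0.29 (quartiles -0.0749 and 0.57) and was positive in 70.5%. Over all pairs of tested rows the median was 0.13, with 59.01% positive. The median was 0.22 within the large subunit, 0.33 within the small subunit and 0.31 between them. Pairs across the subunits therefore covaried about as much as pairs within one. These values are descriptions over 6 libraries that share their scaling, and rows are not independent.

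With each group centred on its own mean, the median r between ribosomal protein rows was 0.26, against 0.16 for all tested rows. It was 0.12 without tail replicate 1, against 0.037 for all tested rows, and 0.41 without tail replicate 4, against 0.12. Without both pectoral replicate 1 and tail replicate 4 it was 0.32, against 0.15. With median-ratio scaling it was 0.15, against 0.00414. In each of these settings the ribosomal protein median was above that of all tested rows.

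Against the mean of the other ribosomal protein rows, r was positive for 63 of 69 rows and above 0.8 for 14. The rows that followed the others most closely were RPS12, RPS10 and RPS18, at 0.95, 0.95 and 0.91, and all 3 are named after their values were seen. RPS10, of the small subunit head, had 2.32, 9.495 and 6.43 TPM in the pectoral libraries, against 31.8, 5.72 and 9.27 TPM in the tail libraries. RPS18, near the contact between subunits, had 1.11, 3.03 and 3.13 TPM in the pectoral libraries, against 31.3, 2.04 and 7.06 TPM in the tail libraries. Both were highest in tail replicate 1, by a wide margin over the other 5 libraries, and lowest in pectoral replicate 1. The 6 rows with a negative r were all of the large subunit, with the paralogs RPL22L1 and RPL7L1 lowest at -0.24 and -0.21.

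**Figure D4:**
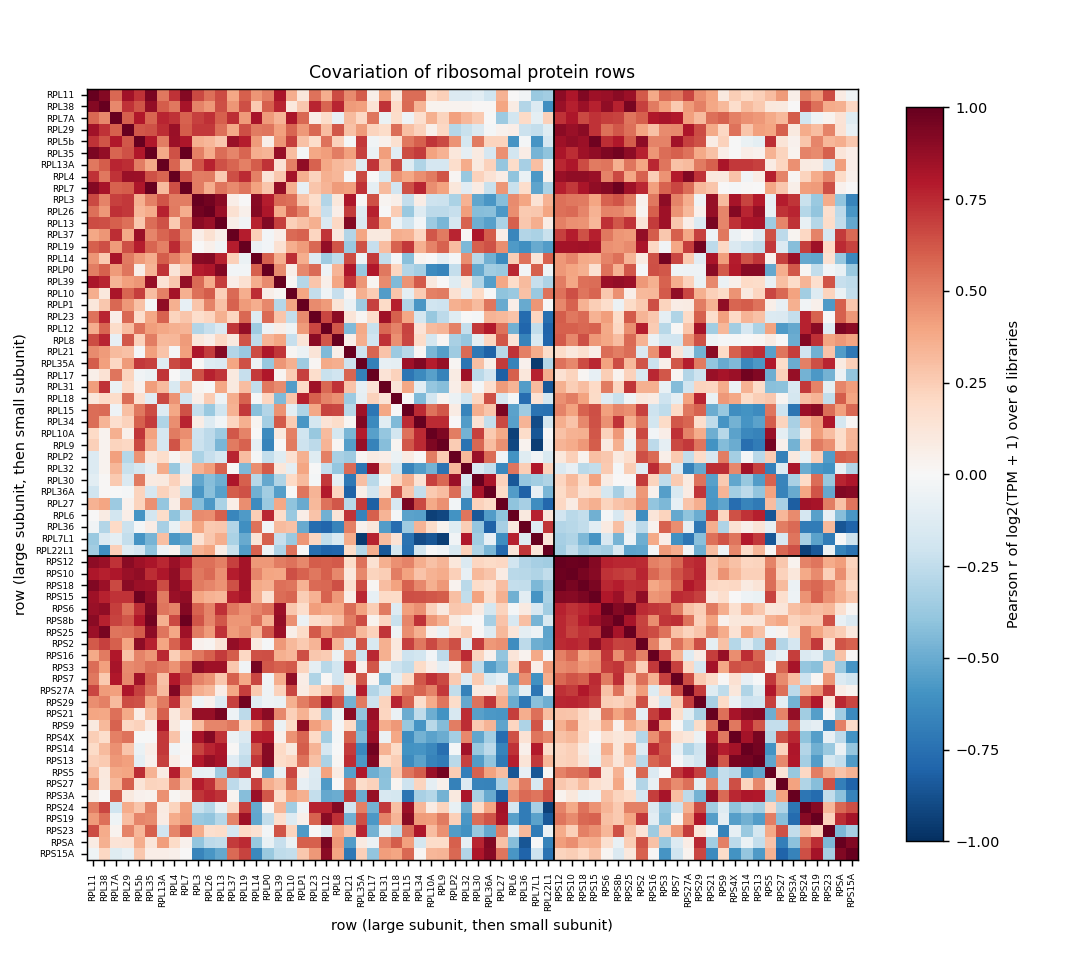
Pearson's r over 6 libraries for each pair of the ribosomal protein rows shown, large subunit first and small subunit second (black lines), each ordered by its r with the mean of the other rows. The paralogs RPL7L1 and RPL22L1 are the last 2 of the large subunit, with r of -0.21 and -0.24 with the mean of the others.

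The order of the rows by level was partly shared between libraries. Across the 69 rows, log2 values of 2 libraries correlated with r of 0.38 to 0.64 within a group and 0.45 to 0.73 between groups. The highest value was between pectoral replicate 1 and tail replicate 2. Library pairs of 1 group were thus not more alike in ribosomal protein rows than pairs from both groups (medians 0.51 and 0.54). Over all tested rows, r was 0.36 to 0.48 within a group (median 0.43) and 0.27 to 0.44 between groups (median 0.37). Rows are not independent of each other, so these correlations are descriptions.

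Other mRNAs of the 5′ TOP class encode elongation and initiation factors. Of 10 such rows, all 10 were tested, 0 passed in limma at an adjusted p under 0.05 and 1 (EEF1B2) at an unadjusted one. Of all tested rows 0.08% and 7.04% did so. Log2 fold changes were negative in 9 of the 10 rows (90%), against 56.5% of all tested rows. Their median was -0.72, against -0.18 for all tested rows. EEF1B2, a subunit of the exchange factor for elongation factor 1A, had 2.26, 9.45 and 0.401 TPM in the pectoral libraries, against 13.97, 14.7 and 16.1 TPM in the tail libraries. EEF1A1, which brings tRNA to the ribosome, had 14.9, 6.67 and 8.81 TPM in the pectoral libraries, against 48.8, 23.99 and 4.65 TPM in the tail libraries. EEF2, which drives translocation, had 8.05, 15.9 and 40.01 TPM in the pectoral libraries, against 38.03, 30.6 and 16.7 TPM in the tail libraries. In 3 of the 10 rows (30%), EEF1B2 among them, every pectoral library was below every tail library, where 7.6% of all tested rows were. In 0 rows it was above, where 4.18% of all tested rows were. EEF1A1 and EEF2 overlapped. RACK1, which sits on the small subunit head, had 5.505, 2.52 and 8.45 TPM in the pectoral libraries, against 11.5, 12.5 and 4.56 TPM in the tail libraries, also with overlapping groups.

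Rows for ribosome assembly were few and low. Of 6 with a row 3 were tested, 0 passed at an adjusted and 0 at an unadjusted p under 0.05 in limma, and their median log2 fold change was 0.81. After their values were seen, 2 of the rows are named here. EBNA1BP2, a nucleolar assembly factor, had 1.21, 0.211 and 0.4398 TPM in the pectoral libraries, against 2.67, 7.65 and 2.21 TPM in the tail libraries. UTP3, of the small subunit processome, had 5.69, 1.89 and 2.93 TPM in the pectoral libraries, against 1.68, 0.987 and 0.0787 TPM in the tail libraries. Their groups separated in opposite directions. Among all 6 assembly rows 2 were higher in every pectoral library and 1 in every tail library. Among the 3 tested it was 1 in each direction, where 4.18% and 7.6% of all tested rows separated so. Of 7 mitochondrial ribosomal protein rows 3 were tested, with 0 past an adjusted and 0 past an unadjusted p under 0.05 and a median of -0.48. No described row named an S6 kinase.

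Markers of progenitors and dividing cells were not ordered alike between the groups. Per library the 7 rows together had 74.3 to 123 TPM in the pectoral group and 57.98 to 95.2 TPM in the tail group. ID4 and MCM7 were higher in every pectoral library, MCM7 being at 0 in all 3 tail libraries, and CCND1 was higher in every tail library. The groups overlapped in the rest of these rows. Of all tested rows 4.18% were higher in every pectoral library and 7.6% in every tail library. Log2 fold changes were negative in 4 of the 7 rows, with a median of -0.64, although the summed TPM reached higher in the pectoral group. Their part in the ribosomal protein values was not tested.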

How the data were processed

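The authors deposited TPM per contig, with 1 column per library, per the file headers, and the p-value column of their table was copied for the rows named. Trimmomatic 0.33, Salmon 0.8.2 and edgeR 3.18.1 appear in the submitters' processing notes, which give them no role. Per the labels' protocols, total RNA gave strand-specific mRNA libraries. The genome build, the choice of rows and the search behind the descriptions were not given in the sources used here. A row is 1 Trinity contig, and 36 of 69 ribosomal protein contigs share the DN number of their Trinity name with other rows, which could share reads. From 7081 rows, 1 exact repeat was removed.

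Rows reaching 1 TPM in 3 or more of the 6 libraries were tested with limma 3.58.1 (R 4.3.3) on log2(TPM + 1), two-sided, with a mean-variance trend and Benjamini-Hochberg adjustment over all tested rows. The pseudocount of 1 understates changes of low rows. The scripts were tested on simulated data. Sums, medians and correlations over ribosomal proteins (pandas 2.3.3) are descriptions without a test. The members, lists and the proteins with a bacterial counterpart were chosen with earlier results of these data known. Named rows were the 6 highest of each subunit, the stalk, RPS27A and paralog rows, the 6 rows of largest fold change among those with separated groups, by direction, the rows listed at 0, and up to 4 of each other list. Other rows were named after their values were seen. TPM hold no read depth, and counting intervals were therefore not computed. Alternatives were other pseudocounts, no filter, scalings, array weights, a replicate block and libraries left out. Some rows that enter the sums and counts are not reported here by name or value and are left out of the plots of single rows. Protein and promoter sequences were not used here.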

Additional observations from a re-analysis of the deposited data

How the results depend on the processing

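At an unadjusted p under 0.05 in limma, 1 to 7 of 69 ribosomal protein rows passed in either direction over the settings run. Of all rows fitted, 4.38% (no filter) to 13.0% (array weights) did so. At an adjusted p under 0.05 in limma, 0 ribosomal protein rows passed in each setting run. Of all tested rows 3 passed, against 1 with a pseudocount of 0.1, median-ratio scaling, no variance trend or the replicate block, 26 with array weights, 0 without pectoral replicate 1 and tail replicate 4, and 1 to 3 without 1 library. The median log2 fold change of ribosomal protein rows was between -0.75 and -0.05 over these settings, and that of large subunit rows was -0.033 with quantile scaling. The count of rows lower in every pectoral library, 10 as deposited, was 4 with median-ratio scaling, 4 relative to the ribosomal protein sum, 25 without pectoral replicate 1 and tail replicate 4, where 30.4% of all tested rows were lower, and 11 to 22 without 1 library, where 10.2% to 22.1% of all tested rows were. Fewer libraries separate more easily. Without tail replicate 4 the count was 21, where 22.1% of all tested rows were lower. The settings on this count, and the correlation without pectoral replicate 1 and tail replicate 4, were chosen after seeing the data. So was the subunit ratio without the row of highest mean TPM in each subunit. The median r between rows was 0.15 with median-ratio scaling and 0.12 to 0.41 without 1 library. Some named rows changed the sign of their log2 fold change, as given in brackets. With a pseudocount of 0.1 this held for RPS21 (0.83). With median-ratio scaling this held for RPS15A (0.25) and RPS21 (0.37). With quantile scaling this held for RPL37 (0.0076), RPS15A (0.48) and RPS21 (0.20). With array weights this held for RPL31 (-0.014), RPLP1 (-0.022), RPLP0 (-0.051) and RPL22L1 (-0.19). With the replicate block this held for RPL31 (-0.46), RPS15A (0.13), RPLP1 (-0.035) and RPLP0 (-0.58). Without pectoral replicate 1 and tail replicate 4 this held for RPS19 (0.59), RPS15A (0.58), RPLP2 (0.045), RPLP0 (-0.12) and RPL22L1 (-1.15). Leaving out 1 library at a time changed the sign of RPS15A (-0.30 to 0.29), RPS21 (-1.29 to 0.69), RPL22L1 (-0.56 to 1.63), RPLP1 (-0.24 to 1.30), RPL31 (-0.52 to 0.27), RPLP0 (-0.28 to 0.52) and RPS19 (-2.49 to 0.073). Of 300 such values for 20 named rows, 266 kept their sign and none passed an adjusted p under 0.05. The cause was not tested. Each symbol has 1 row, so taking 1 row per name changed nothing. Libraries with the same number deviated from their group means with r of -0.033 and -0.0027 over all tested rows, so the numbers were not taken to pair libraries. The median log2 fold change with the replicate block was -0.69. Replicate numbers 3 and 4 occur in 1 group each, so fold changes with the block rest on replicates 1 and 2 of both groups. What depth limits is unknown.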
